A study of Mus musculus with 4 samples.

Results

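Immediate early response genes were followed in the endometrium, the lining of the uterus, of mice. The group comprised 10 genes, taken by symbol from the deposited gene tables: Fos, Fosb, Jun, Egr1, Atf3, Ier2, Nr4a1, Dusp1, Zfp36 and Btg2. All 10 were found among the 28545 genes of each table, and 9 had the mean FPKM of at least 1 that was required for testing (FPKM is the read count scaled to gene length and to the library's total count). Fosb was below that level in every library. The series holds 4 libraries of polyadenylated RNA, all from mice in proestrus, the stage of the cycle before ovulation. A pair of libraries, titled SMAD7fl/fl and with the treatment given as blank, came from mice in which loxP sites were placed in Smad7 by injecting a guide RNA, a donor vector and Cas9 mRNA into fertilized eggs. The other pair, titled SMAD7 Cre+/- and with the treatment given as CKO, was made in the same way and is labelled as carrying Cre recombinase, which removes DNA between loxP sites. The labels name no Cre line, strain or age. The labels do not say whether each library is a separate animal, so p-values measure the spread between libraries, which may be technical.

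Immediate early genes are transcribed within minutes of a stimulus from transcription factors already present in the cell, so no new protein is needed. Growth factors, steroid hormones, stretch, inflammatory signals and stress reach them through MAP kinases, which act on serum response factor and its ETS partners, and through cAMP response element binding protein (CREB). Some of the products are transcription factors that carry the response forward (FOS, FOSB, JUN, ATF3, EGR1, NR4A1). Others shut it down again, by removing phosphate from MAP kinases (DUSP1), by degrading messenger RNA (ZFP36) or by slowing division (BTG2). In the rodent uterus Fos and Jun are classical early targets of estrogen. The same genes also respond to the handling of tissue after death.

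DNA before a RefSeq transcription start of these genes was read for elements through which CREB and serum response factor are known to act. RefSeq promoter entries on GRCm38.p6, each 300 bases from 250 before to 50 after the transcription start, were matched for 8 of the 10 genes by symbol. On both strands 6 motifs were searched. They include the cAMP response element core TGACG and the looser 8-base pattern TGACNTCA, which contains the core only when N is G. The others were the AP-1 element TGACTCA, the EGR element GCGNGGGCG, the TATA element TATAAA and the CArG box of serum response factor. The core was present in 6 of the 8 promoters, against 20.8% of 32851 RefSeq promoters. TGACNTCA was present in 3 of 8, against 8.83%. The EGR element was present in 4 of 8 (5.55% of all), the CArG box in 1 (1.63%), TATAAA in 1 (13.6%) and TGACTCA in 0 (5.20%). The core was also common in 46 promoters of the other early response genes described below, at 25 of 46 (54.3%). In those 46, TGACNTCA was present in 13.0%, the EGR element in 10.9% and the CArG box in 8.70%. TATAAA was present there in 28.3% and TGACTCA in 4.35%. These shares were not matched on base composition, and a match of letters is not a shown binding site. Egr1 and Ier2 had no entry, and DNA outside the 300 bases was not searched. A missing match therefore does not show that a gene lacks the element. The stretches below, 5′ to 3′ on the strand of the gene, carry the matches nearest the RefSeq start. All lie before that start. Capitals mark TGACG or TGACNTCA on either strand, and in Zfp36 the CArG box.
Fos: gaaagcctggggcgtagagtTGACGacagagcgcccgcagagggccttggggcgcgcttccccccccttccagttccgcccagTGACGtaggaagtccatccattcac
Fosb: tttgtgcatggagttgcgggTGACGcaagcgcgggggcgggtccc
Jun: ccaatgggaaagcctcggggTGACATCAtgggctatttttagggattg
Atf3: ggaagctattaatagcattaCGTCAgc
Nr4a1: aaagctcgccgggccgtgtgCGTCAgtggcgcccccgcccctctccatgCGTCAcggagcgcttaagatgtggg
Dusp1: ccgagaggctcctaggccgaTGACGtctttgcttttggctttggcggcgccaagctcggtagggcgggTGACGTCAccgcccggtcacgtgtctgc
Btg2: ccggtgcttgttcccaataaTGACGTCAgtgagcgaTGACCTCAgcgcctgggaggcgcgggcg
Zfp36: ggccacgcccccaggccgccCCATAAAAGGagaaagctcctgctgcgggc

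The stretches lie at chr12:85473741-85473848 (plus strand) for Fos, chr7:19310081-19310125 (minus) for Fosb, chr4:95052240-95052287 (minus) for Jun, chr1:191183334-191183360 (minus) for Atf3 and chr15:101266757-101266830 (plus) for Nr4a1. Those of Dusp1, Btg2 and Zfp36 lie at chr17:26508588-26508683, chr1:134079278-134079341 and chr7:28379257-28379306, all on the minus strand. The Dusp1 stretch holds 2 elements, one of them the 8-base palindrome, and the Btg2 stretch holds that palindrome and, nearer the start, another match of TGACNTCA. The match in Atf3 ends 3 bases before the RefSeq start. The stretches of Atf3, Nr4a1, Dusp1 and Zfp36 lie inside the gene positions given below, which are from GENCODE. For these genes the RefSeq start used here is therefore not the outer start of the gene.

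Smad7, the targeted gene, was read first, and its counts were not lower under the Cre label. It stood at 34.3 and 36.8 CPM (read counts scaled to library size by the TMM method) in fl/fl and at 227.6 and 154.0 CPM under the Cre label (log2 fold change 2.42 ± 0.28 SE, edgeR adjusted p = 0.0982). The labels do not say which exons lie between the loxP sites, so counts over the whole gene cannot show whether those were removed. A direction given below therefore compares libraries by their labels, Cre against fl/fl, and does not stand for a shown loss of Smad7. Total counts ran from 17444368 to 22950532. The biological coefficient of variation was 0.403 within the fl/fl pair and 0.163 within the Cre pair, so the fl/fl libraries were the less alike. Summed markers of epithelium (1772 to 2729 CPM, 8 genes) and of endometrial stroma (3570 to 6304 CPM, 8 genes) were present in all 4 libraries. Among the stroma genes Dcn ran from 1231 to 3591 CPM, and the median log2 fold change was -0.46. Of the 8, 4 (Pdgfra, Hoxa11, Hoxa10 and Hand2) were lower in both libraries labelled Cre than in either labelled fl/fl, where 23.6% of all genes tested were. Lum went the other way, at 877.7 and 1029 CPM under the Cre label against 588.6 and 649.5 CPM under the fl/fl label. Markers of other cells differed between the groups as well: 8 of 8 smooth muscle genes did not overlap and were higher in the libraries labelled Cre, where 24.7% of all genes were (summed 8245 to 9439 against 4524 to 5461 CPM). Summed neutrophil markers were lower there (20.8 to 21.1 against 120.7 to 141.5 CPM over 8 genes). Much of that sum was Retnlg (15.3 and 14.2 against 89.0 and 40.1 CPM), and Mmp8 overlapped (0.102 and 1.67 against 0.255 and 0.459 CPM). Summed T and NK cell markers were also lower (21.7 to 22.2 against 72.4 to 83.9 CPM over 8 genes), with Cd3g overlapping (2.70 and 4.26 against 3.31 and 6.48 CPM). Macrophage markers summed to 413.5 to 475.8 against 503.9 to 849.8 CPM over 7 genes, of which Mrc1 went the other way (90.5 and 92.1 against 65.7 and 37.8 CPM). Mesothelium markers summed to 211.3 to 259.2 against 115.3 to 193.6 CPM over 6 genes. Of these Wt1, the highest in each library, overlapped, and the other 5 did not overlap and were higher. Oviduct and ovary markers summed to 273.4 to 980.0 against 16.5 to 101.8 CPM over 7 genes. Much of that sum was Ovgp1, at 201.2 and 868.7 CPM in Cre replicates 1 and 2 and 1.70 and 86.8 CPM in fl/fl replicates 1 and 2. Inha overlapped, and Cyp11a1 and Amh were below the FPKM minimum. Ngp was at 0 in Cre replicate 1, and Hsd3b1 was at 0 in both fl/fl libraries. The part these differences play in the values that follow was not tested, and in whole tissue fewer cells of a type and less RNA per cell cannot be told apart.

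The immediate early genes did not move as a block. Dusp1, Fos and Jun stood higher in both libraries labelled Cre than in either labelled fl/fl, Atf3 and Ier2 stood lower, and Egr1, Nr4a1, Zfp36 and Btg2 overlapped. None passed at an adjusted p under 0.05: edgeR's quasi-likelihood test with Benjamini-Hochberg adjustment over 13513 genes called 0% of all genes, and the lowest adjusted p among the 9 was 0.192, for Dusp1. DESeq2 on the same counts called 843 of all genes and, of the 9, Atf3. At an unadjusted p under 0.05, 1 of the 9 was higher (Dusp1; 7.30% of all genes tested) and 1 was lower (Atf3; 6.58%). Groups did not overlap for 3 of 9 higher, where 24.7% of all genes did the same, and for 2 of 9 lower, where 23.6% did. These counts are thus close to those of genes at large. Leaving out an fl/fl library raised the calls over all genes: 4249 of 13513 passed at an adjusted p under 0.05 without fl/fl replicate 1 and 2942 without replicate 2, against 0 without either Cre library, and 1928 of 27379 passed with no filter on low genes. Passes of single members in those settings, given below, are to be read beside these numbers. At an unadjusted p under 0.05 the all-gene shares were 22.3% higher and 19.4% lower without fl/fl replicate 1, and 15.4% and 15.7% without replicate 2. Without Cre replicate 1 they were 2.70% and 2.17%, and without Cre replicate 2 they were 2.58% and 2.00%. The median log2 fold change of the 9 was 0.081, with 5 above and 4 below 0, beside a median of -0.033 over all genes. For a single gene an exact two-sided permutation test of 2 against 2 libraries cannot go below p = 0.333.

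**Figure D1:**
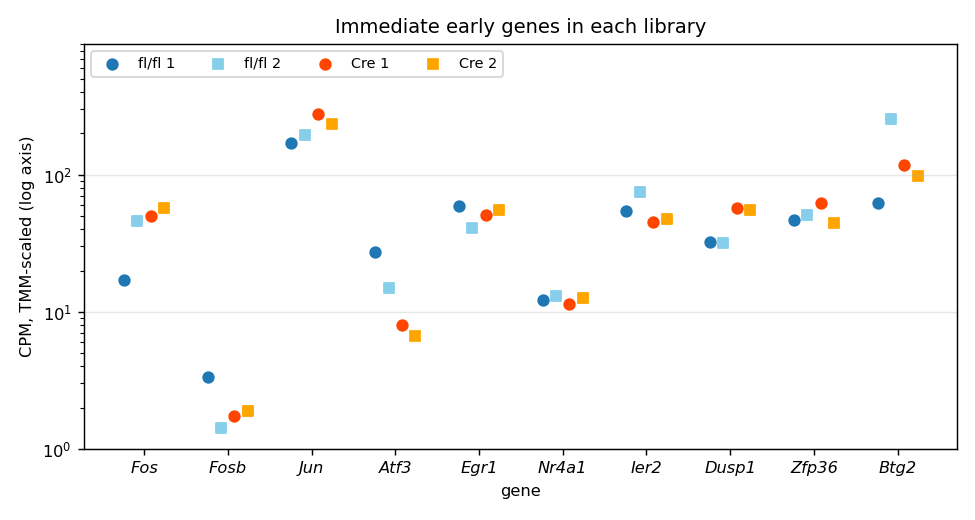
Level of each of the 10 genes in each library, in TMM-scaled CPM on a log axis; circles and squares are replicates 1 and 2 of the libraries labelled fl/fl (blue) and Cre (orange). Dusp1 separates the pairs with little spread inside them, while the fl/fl replicates of Fos (17.1 and 45.7 CPM) and Btg2 (62.7 and 255.8 CPM) lie far apart.

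Among the AP-1 genes, Fos and Jun were the members with higher values in the libraries labelled Cre. FOS proteins cannot pair with themselves and bind DNA as a partner of JUN. Fos (ENSMUSG00000021250, chromosome 12 from 85473890 to 85477273, plus strand of GRCm38) stood at 17.1 and 45.7 CPM under the fl/fl label and at 49.9 and 57.3 CPM in those labelled Cre, from 403, 797, 981 and 995 counts. One library was low, fl/fl replicate 1, and the other three were near each other. The log2 fold change was 0.77 ± 0.48 (SE; edgeR adjusted p = 0.516), with a 95% interval from -0.43 to 1.98. Against fl/fl replicate 1 the Cre mean was 1.65 higher on the log2 scale, and against fl/fl replicate 2 it was 0.23 higher, so the size of the difference rested on 1 library. With fl/fl replicate 2 left out Fos passed (log2 fold change 1.64, edgeR adjusted p = 1e-05), in a fit where the lone fl/fl library is assumed to vary like the Cre pair. With fl/fl replicate 1 left out it had 0.23 (adjusted p = 0.429).

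Jun (ENSMUSG00000052684, chromosome 4 from 95049034 to 95052222, minus strand), a partner of FOS and the most abundant of the 10 per length in 3 of the 4 libraries, was steadier. It stood at 171.1 and 196.1 CPM under the fl/fl label and at 278.6 and 235.0 CPM in those labelled Cre, a log2 fold change of 0.48 ± 0.24 (SE; edgeR adjusted p = 0.442). The groups did not overlap, and the 95% interval ran from -0.13 to 1.09. Exons of the antisense gene Junos cover 7.28% of its exon bases, and reads there cannot be assigned to a strand from the sources used here.

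Fosb, a close relative of Fos, was scarcely present. It had 79 and 25 counts in the libraries labelled fl/fl and 34 and 33 in those labelled Cre (3.36, 1.43, 1.73 and 1.90 CPM). Fl/fl replicate 1 was the highest and fl/fl replicate 2 the lowest, with the libraries labelled Cre between them. The 95% exact Poisson intervals of those fl/fl counts, 62.5 to 98.5 and 16.2 to 36.9, did not meet; they cover counting error only. Fos was at its lowest in fl/fl replicate 1, so the pair of FOS genes ran in opposite directions between the fl/fl replicates (log2 of replicate 2 over replicate 1 was 1.42 for Fos and -1.23 for Fosb).

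Atf3 had the largest difference of the 9 tested and went the other way. ATF3 is a stress-induced factor of the ATF family that pairs with JUN or with itself and often represses its targets. Atf3 (ENSMUSG00000026628, chromosome 1 from 191170296 to 191218039, minus strand) stood at 27.3 and 14.8 CPM under the fl/fl label and at 7.99 and 6.62 CPM in those labelled Cre, from 642, 259, 157 and 115 counts. Both fl/fl libraries were above both others, and fl/fl replicate 1 was the highest. The mean was 21.1 ± 8.79 against 7.31 ± 0.964 CPM (SD, n = 2 each). The log2 fold change was -1.53 ± 0.40 (SE; edgeR adjusted p = 0.220), with a 95% interval from -2.53 to -0.52. It passed with DESeq2 (-1.52, adjusted p = 0.0226), with no filter on low genes (-1.59, 0.00189), without fl/fl replicate 1 (-1.02, 0.0200) and without fl/fl replicate 2 (-1.91, 1.1e-05). In edgeR without Cre replicate 1 or 2 it did not (-1.68 and -1.40, adjusted p of 0.998 and 1.00). Across its alternatives the adjusted p ran from 1.1e-05 to 1.00.

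**Figure D2:**
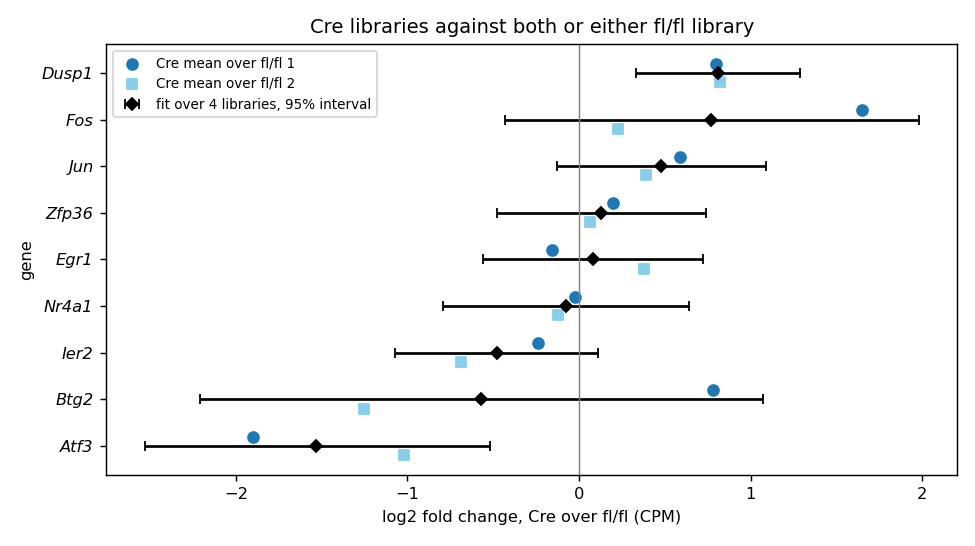
Log2 fold change of the 9 tested genes, libraries labelled Cre over those labelled fl/fl; diamonds with bars are the edgeR estimate and its 95% interval, and blue marks set the mean of the Cre pair against fl/fl replicate 1 (circles) or 2 (squares) alone. The blue marks of Dusp1 coincide (0.80 and 0.82), those of Fos are 1.65 and 0.23, and those of Btg2 lie on opposite sides of 0 (0.78 and -1.25).

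The zinc finger, nuclear receptor and small early response genes showed smaller differences. Egr1, a zinc finger factor that binds GC-rich promoters (ENSMUSG00000038418, chromosome 18 from 34859823 to 34864984, plus strand), stood at 59.1 and 40.6 CPM under the fl/fl label and at 50.5 and 55.0 CPM in those labelled Cre. Both Cre values lay between the fl/fl values. Its log2 fold change was 0.081 with a 95% interval from -0.56 to 0.72, which leaves room for a 1.65-fold increase or a fold of 0.679. Nr4a1, an orphan nuclear receptor (ENSMUSG00000023034, chromosome 15 from 101254269 to 101274795, plus strand), was the most even of the 10, at 12.2 and 13.1 against 11.3 and 12.7 CPM. Its highest library exceeded its lowest 1.15-fold, and its log2 fold change was -0.073 (95% interval -0.79 to 0.64).

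Ier2, a small nuclear protein of early growth responses (ENSMUSG00000053560, chromosome 8 from 84661331 to 84662852, minus strand), stood at 54.6 and 74.3 CPM under the fl/fl label and at 45.0 and 47.2 CPM in those labelled Cre. The groups did not overlap, with fl/fl replicate 2 the highest. The log2 fold change was -0.48 ± 0.23 (SE; edgeR adjusted p = 0.430). Without fl/fl replicate 1 it passed (-0.69, adjusted p = 0.0112), and without fl/fl replicate 2 it did not (-0.25, 0.453).

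Of the members that end the response, Dusp1 separated the groups most cleanly. DUSP1 is a nuclear phosphatase that inactivates the MAP kinases p38, JNK and ERK, and its gene is also induced by glucocorticoids. Dusp1 (ENSMUSG00000024190, chromosome 17 from 26505590 to 26562128, minus strand) stood at 32.3 and 31.7 CPM under the fl/fl label and at 56.9 and 55.2 CPM in those labelled Cre, from 759, 553, 1118 and 958 counts. Replicates agreed within 1.02-fold and 1.03-fold, against a 1.75-fold difference between the groups. The log2 fold change was 0.81 ± 0.19 (SE; unadjusted p = 0.00702, adjusted p = 0.192 in edgeR), with a 95% interval from 0.33 to 1.29. DESeq2 gave an adjusted p of 0.0523. It passed without fl/fl replicate 1 (0.82, adjusted p = 0.00568) or 2 (0.79, 0.00782), and not without Cre replicate 1 (0.78, 0.998) or 2 (0.83, 1.00). The size thus stayed between 0.75 and 0.84 in every setting tried.

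Zfp36 encodes tristetraprolin, which binds AU-rich messenger RNA of cytokines and leads to its decay (ENSMUSG00000044786, chromosome 7 from 28376784 to 28380253, minus strand). It stood at 46.4 and 51.1 CPM under the fl/fl label and at 62.0 and 44.7 CPM in those labelled Cre. The Cre values lay on either side of the fl/fl values, with a log2 fold change of 0.13 (95% interval -0.48 to 0.74). Exons of Gm44710 on the other strand cover 3.60% of its exon bases.

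Btg2, an antiproliferative gene induced by p53 and growth factors (ENSMUSG00000020423, chromosome 1 from 134075170 to 134079120, minus strand), had the widest spread. It stood at 62.7 and 255.8 CPM under the fl/fl label, a 4.08-fold difference between replicates, and at 117.0 and 97.5 CPM in those labelled Cre. Both Cre values lay between them. The log2 fold change was -0.57 ± 0.65 (SE; edgeR adjusted p = 0.715), and its sign depended on 1 library: it was -1.25 without fl/fl replicate 1 (adjusted p = 7.3e-05) and 0.77 without fl/fl replicate 2 (0.00978), each called in opposite directions.

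The fl/fl replicates thus set some of these values. Of the 9, 5 differed more inside the fl/fl pair than inside the Cre pair, beside 72.0% of all genes tested. Among the 9, Fos and Btg2 were at least 2-fold higher in fl/fl replicate 2 than in replicate 1, and 0 were 2-fold higher in replicate 1; over all genes tested those shares were 9.18% and 10.2%. The libraries labelled Cre differed 2-fold from each other for 0 of the 9 genes (2.80% of all). The median absolute log2 difference inside the fl/fl pair was 0.45 for the 9 genes and 0.44 for all genes, and inside the Cre pair it was 0.20 for both. Of the 40 other early response genes described below, 9 were at least 2-fold higher in fl/fl replicate 2 and 2 in replicate 1. They include Ier3 (18.7 and 350.0 CPM in fl/fl replicates 1 and 2), Nfkbiz (36.5 and 316.5 CPM), Cebpd (46.7 and 240.8 CPM) and Nfkbia (83.4 and 382.9 CPM), all named after their values were seen.

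Per length, the order of the 10 genes was similar in the libraries labelled Cre. Jun led at 86.6 and 73.3 FPKM, followed by Btg2 (42.3 and 35.4), Ier2 (29.3 and 30.8) and Fos (21.0 and 24.3), while Fosb was last at 0.275 and 0.303 FPKM. In fl/fl replicate 2 Btg2 led at 89.4 FPKM, before Jun at 59.0. In fl/fl replicate 1 Jun led at 55.0 FPKM, and Fos came eighth at 7.47, below Atf3 at 13.0. Zfp36, Dusp1 and Egr1 stood between 8.69 and 17.7 FPKM in all 4 libraries, and neighbours in that range changed places between replicates.

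FOS and JUN family transcripts were then set beside each other, since both feed the same AP-1 dimers. Fos, Fosb, Fosl1 and Fosl2 together made 13.5% and 16.1% of the FPKM of the 7 genes in the libraries labelled fl/fl, and 21.2% and 23.1% in those labelled Cre. The groups did not overlap in this share. Nearly all of it was Fos (7.47 and 18.6 against 21.0 and 24.3 FPKM) and Fosl2, which encodes FRA-2 (14.8 and 14.7 against 26.1 and 20.8 FPKM). Fos alone made 4.39% and 8.93% against 9.42% and 12.3%, so fl/fl replicate 2 was close to Cre replicate 1. Fosl2 made 8.70% and 7.02% against 11.7% and 10.6%. These shares also depend on the JUN genes, of which Junb was highest in fl/fl replicate 2. Jun made 32.4% and 28.3% against 38.8% and 37.2%, while Junb, a weaker activator than JUN, made 22.0% and 33.7% against 20.9% and 15.0%. The 7 genes summed to 170.0 and 208.6 against 223.4 and 197.0 FPKM, which overlapped. Atf3 relative to Jun was 0.236 and 0.112 in the libraries labelled fl/fl and 0.0425 and 0.0417 in those labelled Cre, as a ratio of FPKM.

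**Figure D3:**
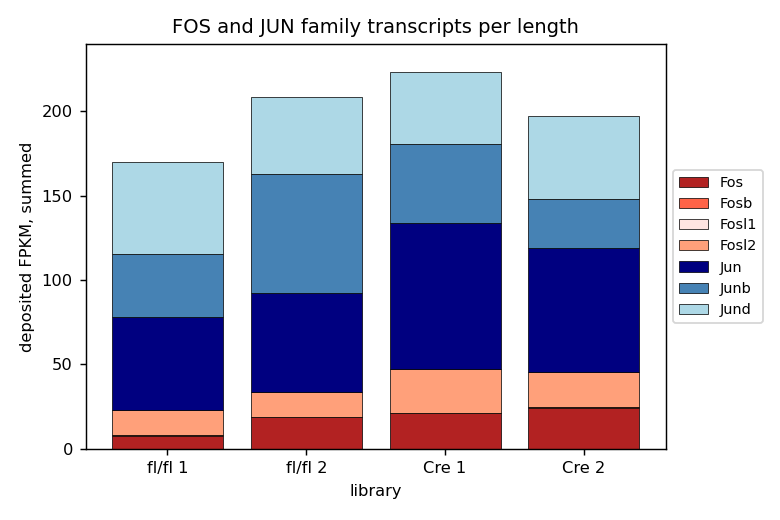
Deposited FPKM of the 4 FOS genes (red) and 3 JUN genes (blue), stacked for each library. The red share is 13.5% and 16.1% in the libraries labelled fl/fl and 21.2% and 23.1% in those labelled Cre, and Fosb and Fosl1 are too low to be seen as more than a line.

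Other factors of the AP-1 and CREB/ATF type were mixed as well: of 12, 11 were tested, 2 of them higher and 1 lower with p under 0.05 before adjustment (7.30% and 6.58% of all genes), and the median log2 fold change was -0.17. Fosl2 (0.67 ± 0.24 SE) and Jdp2, a repressor that pairs with JUN (1.03 ± 0.36), were the higher ones. Maff, a small MAF protein without an activation domain, was lower, at 14.2 and 27.1 against 7.58 and 7.95 CPM (-1.41 ± 0.40). Their adjusted p-values were 0.323, 0.314 and 0.247 in edgeR. Leaving out 1 library gave list medians of -0.28 (without fl/fl replicate 1), -0.12 (fl/fl replicate 2), -0.29 (Cre replicate 1) and -0.22 (Cre replicate 2). In the same order the counts were 3 higher and 2 lower, 2 and 3, 0 and 1, and 1 and 0. The all-gene shares were 22.3% and 19.4%, 15.4% and 15.7%, 2.70% and 2.17%, and 2.58% and 2.00%.

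Of 44 other early response genes, 40 were tested; before adjustment 6 of them were higher and 5 lower with p under 0.05 (7.30% and 6.58% of all genes), 0 after it, and the median log2 fold change was -0.11. Higher were Errfi1, a feedback inhibitor of the EGF receptor (66.8 and 91.7 against 293.9 and 301.7 CPM), Ccn1, a matricellular protein (24.1 and 10.4 against 72.2 and 48.8 CPM), Gadd45g, Tiparp, Per1 and Plk2. Errfi1 showed a log2 fold change of 1.91 ± 0.26 (SE; edgeR adjusted p = 0.103), larger than the spread in either pair. Lower were Ptgs2, the inducible cyclooxygenase (36.1 and 11.3 against 1.27 and 2.42 CPM), Id1, Ier5, Btg1 and Tnfaip3. Btg1, the paralog of Btg2, stood at 266.6 and 413.2 against 171.9 and 157.1 CPM, so unlike Btg2 its groups did not overlap. Nr4a2, a paralog of Nr4a1, stood at 10.9 and 5.62 against 16.7 and 15.0 CPM. Nr4a3, the other paralog, was below the FPKM minimum and stood at 10.7 and 5.04 against 2.90 and 2.19 CPM. Leaving out 1 library moved the counts to 9 higher and 13 lower without fl/fl replicate 1, 14 and 9 without fl/fl replicate 2, 2 and 3 without Cre replicate 1, and 3 and 2 without Cre replicate 2. The all-gene shares higher and lower in these settings were, in the same order, 22.3% and 19.4%, 15.4% and 15.7%, 2.70% and 2.17%, and 2.58% and 2.00%.

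Among 16 other dual-specificity phosphatases and feedback regulators, the relatives of Dusp1 differed in both directions, with 1 higher and 3 lower (7.30% and 6.58% of all genes). Of these, 1 (Dusp6, the cytoplasmic ERK phosphatase) was higher at an unadjusted p under 0.05 (43.2 and 55.3 against 83.2 and 84.5 CPM, log2 fold change 0.77 ± 0.22 SE, edgeR adjusted p = 0.251). Dusp2, Dusp4 and Dusp10 were lower: Dusp2 stood at 12.7 and 13.5 against 6.56 and 6.39 CPM, Dusp4 at 8.20 and 10.2 against 4.33 and 4.44 CPM, and Dusp10 at 14.1 and 6.48 against 3.41 and 3.28 CPM. The median of the list was -0.12. The counts were 3 higher and 4 lower without fl/fl replicate 1, 1 and 5 without fl/fl replicate 2, and 0 and 0 without either Cre library. Over all genes the shares higher and lower were 22.3% and 19.4% without fl/fl replicate 1, and 15.4% and 15.7% without fl/fl replicate 2. Without Cre replicate 1 they were 2.70% and 2.17%, and without Cre replicate 2 they were 2.58% and 2.00%. Dusp2 is known from activated immune cells, most of whose markers were also lower in the libraries labelled Cre. The part of those cells in the value was not tested.

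Of 35 kinases, RAS genes and SRF or CREB cofactors that act upstream, all tested, 1 was higher and 0 lower with p under 0.05 before adjustment, where 7.30% and 6.58% of all genes were, with a median log2 fold change of 0.091. The 1 was Crtc1, a coactivator of CREB (41.9 and 36.1 against 75.7 and 63.3 CPM, 0.83 ± 0.21 SE, edgeR adjusted p = 0.220). Srf stood at 123.3 and 90.6 against 118.6 and 111.9 CPM, and Creb1 at 90.8 and 58.3 against 94.3 and 102.3 CPM. Their activity depends on phosphorylation, which RNA does not show. Without fl/fl replicate 1 there were 10 higher and 4 lower, without fl/fl replicate 2 there were 4 and 3, without Cre replicate 1 there were 0 and 0, and without Cre replicate 2 there were 1 and 0, beside all-gene shares of 22.3% and 19.4% in the first of these settings and 15.4% and 15.7% in the next.

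Heat shock genes, which share inducers with the immediate early genes, included 7 of 14 higher in the libraries labelled Cre at an unadjusted p under 0.05 and 0 lower (7.30% and 6.58% of all genes), with a median log2 fold change of 0.56, and 0 passed at an adjusted p under 0.05. Hsph1, a chaperone of the HSP110 family, stood at 70.9 and 30.2 against 181.8 and 243.9 CPM, Dnajb1 at 51.9 and 44.5 against 89.7 and 85.7 CPM, and Hspa5, the chaperone of the endoplasmic reticulum, at 576.8 and 379.9 against 1014 and 1110 CPM. Hspa1a stood at 10.8 and 16.5 against 43.5 and 39.9 CPM and Hspa1b at 47.0 and 128.5 against 233.3 and 225.4 CPM; they are near-identical copies whose reads may be shared. Dnajb4 and Bag3 completed the 7. The counts were 8 higher and 1 lower without fl/fl replicate 1, 8 and 0 without fl/fl replicate 2, and 2 and 0 without either Cre library, beside all-gene shares higher of 22.3%, 15.4%, 2.70% and 2.58%. The time from death to lysis is not given in the sources used here, and its part in the values was not tested.

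**Figure D4:**
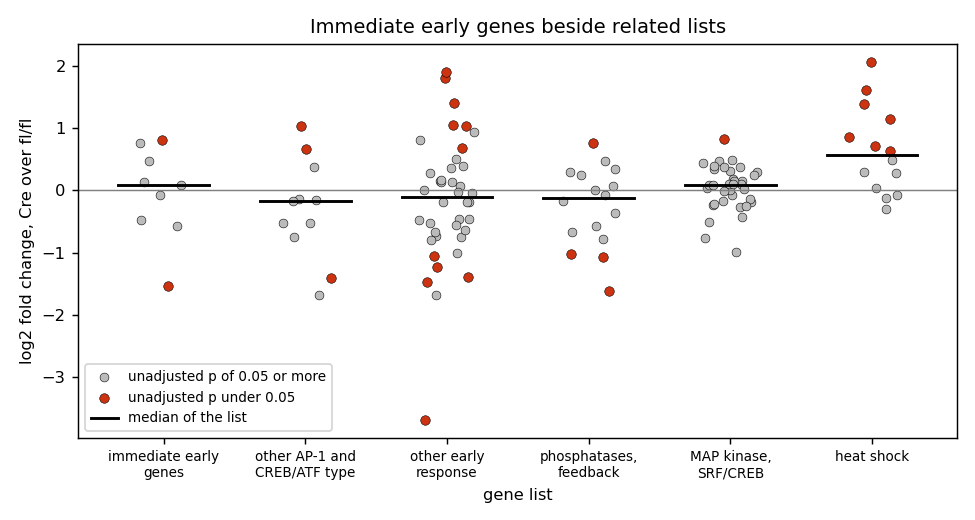
Log2 fold change, libraries labelled Cre over those labelled fl/fl, of each tested gene in 6 lists; red points have an unadjusted p under 0.05 in edgeR and black lines are medians. The immediate early genes spread from -1.53 (Atf3) to 0.81 (Dusp1) around a median of 0.081, and the heat shock list has the highest median, 0.56.

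The genes most like Fos over the 4 libraries were chosen by the smallest Euclidean distance between centred log2 CPM values, leaving out the lists above and unnamed genes. They were Pag1 (distance 0.0440), Rbm11 (0.0853), Atp10b (0.0991), Rhpn2 (0.135) and Fgf10 (0.147). Pag1, for example, stood at 14.1, 36.3, 39.4 and 45.6 CPM in fl/fl replicates 1 and 2 and Cre replicates 1 and 2. No other immediate early gene came as near: Jun had a distance of 1.02 and Dusp1 of 1.04, Atf3 was the farthest at 2.92, and the median over all genes tested was 1.50. With 4 points this likeness is a description only.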

How the data were processed

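RNA of 4 endometrium libraries was extracted with TRIzol and prepared with a NEBNext Ultra kit, per the labels' protocols. HISAT2, HTSeq 0.13.5 and the build GRCm38 are listed in the submitters' processing notes; the strand setting is not given in the sources used here. Each deposited table gives, per the file headers, a raw count and an FPKM value for every gene. The FPKM follow from count, gene length and total count: implied lengths agreed between libraries within 1e-06 for 23463 of 23463 genes. Reads that HTSeq cannot assign to 1 gene may be left out.

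Counts were tested with edgeR 4.0.16 (R 4.3.3; quasi-likelihood, TMM scaling, group as the only term, 2 residual degrees of freedom) for the 13513 genes whose FPKM averaged at least 1, adjusted by Benjamini-Hochberg. SE is the log2 fold change over the root of the test statistic. The code was tested on simulated data. Alternatives were DESeq2 1.42.0, limma 3.58.1 on log2(FPKM + 1) and log2(FPKM + 0.1), other scalings and filters, a replicate block and each library left out; overlap on deposited FPKM was added after the data were seen. Gene positions and exon overlaps are from GENCODE mouse release 21 (GRCm38). Members and lists were chosen with earlier results of these data known. All 10 members are named; from other lists, genes at an unadjusted p under 0.05, or otherwise the 4 of smallest p, could be named. Junb, Fosl1, Nr4a2, Nr4a3, Srf, Creb1, Ier3, Nfkbiz, Cebpd, Nfkbia and single markers were named beyond that rule.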

Additional observations from a re-analysis of the deposited data

How the results depend on the processing

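Of 107 alternative values of the 9 tested genes, 95 kept their direction and side of the adjusted threshold and 3 changed sign. In all 10 passed, 1 of them with its sign changed (Btg2 without fl/fl replicate 2). With 1 library left out Egr1 ran from -0.17 (without fl/fl replicate 2) to 0.38, Btg2 from -1.25 (without fl/fl replicate 1) to 0.77 (without fl/fl replicate 2) and Zfp36 from -0.13 (without Cre replicate 1) to 0.35; the other genes kept their sign. The number of genes at an unadjusted p under 0.05 was 1 higher and 1 lower; it was 2 and 2 with no filter on low genes. With 1 library left out it ran from 0 to 4 higher and from 0 to 3 lower, while over all genes it ran from 2.58% to 22.3% higher and from 2.00% to 19.4% lower. The median log2 fold change of 0.081 was -0.054 with no filter, where Fosb entered, and ran from -0.0013 to 0.19 with 1 library left out. Counts of genes whose groups did not overlap were the same under both other scalings and on FPKM; with a library left out this count was not computed. The filter of 5 removed Nr4a1. Deviations of same-numbered libraries had a correlation of -0.061 over genes. With 1 difference inside each group this cannot exclude that the libraries are paired. With the replicate block the counts were 1 higher and 1 lower, the median was 0.10 and no adjusted call changed. Under it the other AP-1 and CREB/ATF-type factors had 0 higher and 2 lower, so neither Fosl2 nor Jdp2 passed an unadjusted 0.05. Phosphatases and feedback regulators had 1 higher and 2 lower with the block, and heat shock genes had 6 higher and 0 lower. The all-gene shares with the block were 6.42% higher and 4.86% lower. Fosb rests on 25 to 79 counts a library.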
